A study of Mus musculus with 2 samples.

Results

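MHC class I molecules show peptides made inside a cell to passing lymphocytes, and the 10 genes described here encode their chains and the machinery that loads them. They are the heavy chains H2-K1, H2-D1, H2-Q4, H2-Q6, H2-Q7 and H2-T23, the light chain B2m, the peptide transporter subunits Tap1 and Tap2, and the loading chaperone Tapbp (tapasin). They were found by symbol among the 31053 genes of the files, and each of the 10 matched 1 gene ID. The study counted polyA RNA in single mammary gland cells with the CD24high CD29+ surface phenotype, from C57BL/6 mice, by droplet sequencing of 3′ tags. There were 2 libraries, 1 labelled with the genotype Fgd5-ko, whose title has the short form cko, and 1 labelled WT; the cells in which Fgd5 was deleted, the number of animals pooled and the deleted part of the gene are not stated by the labels. With 1 library per group no test was possible, and no difference below has a replicate check.

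Class I heavy chains pair with B2m in the endoplasmic reticulum, where the TAP transporter delivers peptides cut by the proteasome and tapasin holds the empty molecule next to it. H2-K1 and H2-D1 are the classical molecules read by CD8 T cells. The H2-Q and H2-T genes encode non-classical molecules, among them Qa-2 (H2-Q6 and H2-Q7) and Qa-1 (H2-T23), the ligand of an inhibitory receptor of natural killer cells. Interferon gamma raises the pathway in epithelium and endothelium through Irf1 and the transactivator Nlrc5, and NF-kappaB binds an enhancer in classical class I promoters. None of this paragraph is a result of these data.

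The cells were those of the authors' table, 6064 in the library labelled Fgd5-ko and 6588 in the library labelled WT, with a median of 15712 and 4954 unique molecules (UMIs) per cell. Clusters with basal markers held 6029 (99.4%) and 6361 (96.6%) of them and are called basal-like; luminal progenitor-like cells numbered 17 and 118, and hormone-sensing luminal-like cells 5 and 53. Barcodes outside the table that passed quality limits, 1626 and 3490, gave endothelial-like (275 and 1277), fibroblast-like (584 and 1057) and smaller classes. Only 34 barcode sequences occurred in both libraries. The targeted gene went against the label: Fgd5 was at 4.05 CPM (a gene's UMIs over all UMIs of the class, as counts per 1000000) in basal-like cells from the library labelled Fgd5-ko, against 0.840 CPM in the library labelled WT. Because 3′ tags outside a deleted part would not show a deletion, this does not check the label, and directions below are those between the labelled libraries, not those of Fgd5 loss. Intervals are exact 95% intervals (Poisson for CPM, Clopper-Pearson for shares, conditional for ratios) and cover counting error only.

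B2m lies on chromosome 2 and the other 9 genes on chromosome 17, within the mouse MHC, in GRCm38 coordinates of GENCODE M21. B2m spans 122147686 to 122153083. From left to right on chromosome 17, Tapbp spans 33915899 to 33929292, H2-K1 33996017 to 34000347, Tap1 34187553 to 34197225, Tap2 34203527 to 34216321, H2-D1 35262730 to 35267499, H2-Q4 35379617 to 35385290, H2-Q6 35424850 to 35430055, H2-Q7 35439155 to 35443773 and H2-T23 36029773 to 36032855. H2-K1 and H2-T23 lie on the minus strand and the others on the plus strand. The submitters' processing notes name mm9, so these positions come from gene IDs and not from the files. Promoter windows of 250 bases before the RefSeq start (GRCm38.p6) were found for 9 of the 10 genes; Tap2 had no entry. The RefSeq start need not be the GENCODE gene's outer end: the windows of Tapbp and H2-D1 lie inside the GENCODE gene, and that of H2-T23 partly so. The windows are shown first for 4 genes at a higher level in basal-like cells from the library labelled Fgd5-ko, since their matches differ. Capitals mark matches to the kappaB consensus (10 letters), to GAAGTGAAA, or to the interferon-stimulated response element (10 letters), on either strand.
H2-K1 (chr17:34000348-34000597, minus strand): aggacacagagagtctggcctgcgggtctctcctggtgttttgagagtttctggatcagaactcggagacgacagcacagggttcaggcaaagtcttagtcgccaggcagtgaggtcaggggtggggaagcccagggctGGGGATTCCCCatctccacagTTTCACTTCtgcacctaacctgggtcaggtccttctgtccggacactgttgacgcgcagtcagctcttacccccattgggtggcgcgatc
H2-Q7 (chr17:35438905-35439154, plus strand): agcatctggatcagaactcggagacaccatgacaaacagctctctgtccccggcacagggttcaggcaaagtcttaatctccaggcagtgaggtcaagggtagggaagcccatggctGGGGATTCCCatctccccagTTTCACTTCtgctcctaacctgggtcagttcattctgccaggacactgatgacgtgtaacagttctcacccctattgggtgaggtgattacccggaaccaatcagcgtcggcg
B2m (chr2:122147437-122147686, plus strand): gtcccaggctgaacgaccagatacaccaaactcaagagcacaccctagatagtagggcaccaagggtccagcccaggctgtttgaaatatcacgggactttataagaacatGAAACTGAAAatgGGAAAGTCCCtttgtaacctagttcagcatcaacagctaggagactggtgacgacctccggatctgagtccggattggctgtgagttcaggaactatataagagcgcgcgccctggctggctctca
Tap1 (chr17:34187306-34187555, plus strand): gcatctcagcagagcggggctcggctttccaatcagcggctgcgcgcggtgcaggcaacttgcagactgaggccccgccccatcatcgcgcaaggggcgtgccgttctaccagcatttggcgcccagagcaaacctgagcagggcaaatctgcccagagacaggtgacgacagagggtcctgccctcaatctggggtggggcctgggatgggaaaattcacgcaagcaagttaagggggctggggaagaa
H2-T23 and Tapbp were at nearly the same level in both libraries in basal-like cells of the authors' table. Their windows follow for comparison.
H2-T23 (chr17:36032702-36032951, minus strand): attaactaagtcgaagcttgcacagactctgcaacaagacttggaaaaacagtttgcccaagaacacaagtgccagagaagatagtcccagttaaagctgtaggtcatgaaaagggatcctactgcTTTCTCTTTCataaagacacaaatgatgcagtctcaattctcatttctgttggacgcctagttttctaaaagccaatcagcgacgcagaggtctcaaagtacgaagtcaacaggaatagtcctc
Tapbp (chr17:33919228-33919477, plus strand): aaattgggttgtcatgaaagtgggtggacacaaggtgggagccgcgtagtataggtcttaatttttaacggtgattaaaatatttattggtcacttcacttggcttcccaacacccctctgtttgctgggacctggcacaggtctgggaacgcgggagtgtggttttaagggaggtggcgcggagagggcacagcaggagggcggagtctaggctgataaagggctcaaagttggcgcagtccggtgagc

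The windows of Tap1 and Tapbp hold no match to these 3 motifs. A kappaB match was present in 6 of 9 windows, those of H2-K1, H2-D1, H2-Q4, H2-Q6, H2-Q7 and B2m, against 7.01% of 27025 promoter windows of the same length. The sequence is close to a palindrome in the heavy chains, so overlapping matches on both strands are 1 place. GAAGTGAAA, chosen after the H2-K1 window had been read, was found in the same 5 heavy chain windows and in 0.429% of all windows. The interferon-stimulated response element was found in B2m and H2-T23 and in 3.04% of all windows. CCAAT occurred in all 9 windows (34.5% of all windows) and TGACG in 6 (17.9%). The heavy chain genes are copies of one another, so their shared matches are not separate occurrences, and a match is only a description of the letters. Tap1 and Psmb9, an immunoproteasome subunit, start 225 bases apart on opposite strands, so the Tap1 window also covers the start of Psmb9.

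In basal-like cells 8 of the 10 genes were at least 1.5-fold higher in the library labelled Fgd5-ko, and 0 were at least 1.5-fold lower. Over all 9410 genes counted there, 22.9% were at least 1.5-fold higher and 5.65% at least 1.5-fold lower. The median log2 ratio was 1.52 for the 10 genes and 0.23 for all genes. The 10 genes together took 2946 CPM (2935 to 2956) within the library labelled Fgd5-ko and 1217 CPM (1205 to 1228) in the library labelled WT. Scaling by TMM factors or by median ratios shifts every log2 ratio in basal-like cells by -0.17 or -0.19, and the count becomes 7 under either, without Tap2.

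The classical heavy chains were at a little over 2 times the level. H2-K1 was at 776 CPM in the library labelled Fgd5-ko and 310 CPM in the library labelled WT, a log2 ratio of 1.32 (1.30 to 1.35). H2-D1 was at 865 and 423 CPM, a log2 ratio of 1.03 (1.01 to 1.06). H2-K1 had 80265 and 11062 UMIs and H2-D1 89483 and 15117, so counting error is small beside the difference, while the spread between animals is unknown.

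The Q-region heavy chains differed most. H2-Q7 had 7062 UMIs (68.3 CPM) in the library labelled Fgd5-ko and 69 UMIs (1.93 CPM) in the library labelled WT, a log2 ratio of 5.14 (4.80 to 5.51). H2-Q6 had 2877 UMIs (27.8 CPM) against 32 UMIs (0.896 CPM), a log2 ratio of 4.96 (4.45 to 5.51). H2-Q4, another non-classical heavy chain of the Q region, was at 168 and 39.2 CPM, a log2 ratio of 2.10 (2.02 to 2.18). Of the 90-base stretches in the last 500 bases of its annotated transcripts, H2-Q6 shared 26.9% with another gene, among them H2-Q7 and H2-Q1, and H2-Q7 shared 4.73% with H2-Q5, so the split of UMIs among these copies is uncertain. H2-K1 shared 0.151% and H2-D1 none.

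H2-T23 was the heavy chain at nearly the same level in both. It was at 147 CPM in the library labelled Fgd5-ko and 141 CPM in the library labelled WT, a log2 ratio of 0.06 (0.01 to 0.10) that turned to -0.11 with TMM and -0.13 with median ratios. Of its 90-base stretches 13.4% were shared with other transcripts. Its interval excludes a 1.5-fold difference.

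B2m, the light chain that every class I heavy chain needs at the surface, was higher by more than the heavy chains together. It was at 768 CPM in the library labelled Fgd5-ko and 213 CPM in the library labelled WT, a log2 ratio of 1.85 (1.82 to 1.88), against 1.16 (1.15 to 1.18) for the 6 heavy chains summed. B2m UMIs per heavy chain UMI were thus 0.374 (0.371 to 0.377) and 0.232 (0.227 to 0.238). The intervals of the ratios do not overlap.

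The loading genes split. Tap1 was at 37.5 CPM in the library labelled Fgd5-ko and 11.5 CPM in the library labelled WT, a log2 ratio of 1.71 (1.56 to 1.86). Tap2, its partner in the transporter, was at 35.4 and 22.7 CPM, a log2 ratio of 0.64 (0.53 to 0.75), just past the 1.5-fold limit. Tap1 UMIs per Tap2 UMI were therefore 1.06 (1.01 to 1.11) against 0.506 (0.448 to 0.571). Tapbp was at 52.9 and 52.7 CPM, a log2 ratio of 0.00 (-0.07 to 0.08), or -0.17 and -0.18 with the other scalings.

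**Figure D1:**
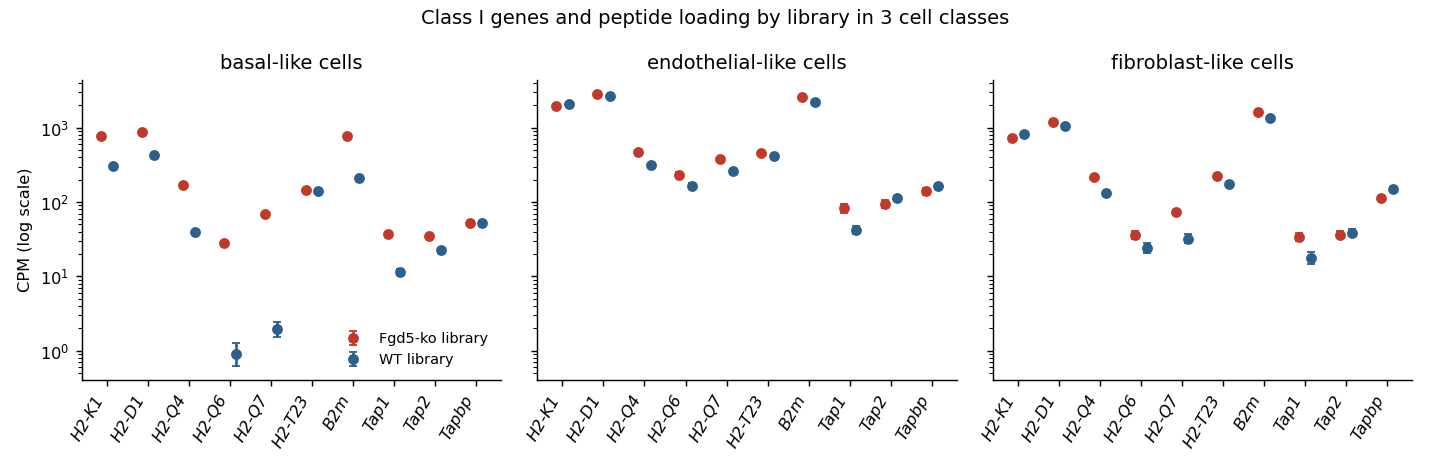
CPM of each gene (log axis) in the library labelled Fgd5-ko (red, left) and the library labelled WT (blue, right), in basal-like, endothelial-like and fibroblast-like cells; bars are 95% Poisson intervals. In basal-like cells H2-Q6 and H2-Q7 are at 27.8 and 68.3 CPM against 0.896 and 1.93 CPM, whereas in endothelial-like cells H2-K1, H2-D1 and B2m nearly coincide.

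The make-up of heavy chain UMIs differed in its non-classical part. A 3′ tag library counts 1 UMI per captured molecule whatever its length, so UMIs of different genes were set side by side as shares. These shares are approximate, because the heavy chains share 3′ sequence with other genes to unlike extents. Of the 90-base stretches 26.9% were shared for H2-Q6, 13.4% for H2-T23, 9.49% for H2-Q4 and 4.73% for H2-Q7. The effect on the shares was not tested. H2-K1 and H2-D1 together made up 79.9% (79.8 to 80.1) of heavy chain UMIs in basal-like cells from the library labelled Fgd5-ko and 80.0% (79.5 to 80.4) in the library labelled WT. H2-T23 made up 7.18% against 15.4%, and H2-Q4, H2-Q6 and H2-Q7 together 12.9% (12.7 to 13.0) against 4.59% (4.36 to 4.82). The classical share was thus nearly equal while the order of the Q genes and H2-T23 was the opposite in the 2 libraries.

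Depth differed between the libraries, and the size of the differences moved with it. With the basal-like cells of each library cut into 4 equal groups by depth, the shallowest group of the library labelled Fgd5-ko (3634 to 11768 UMIs per cell) had 2168 CPM of the 10 genes summed, and the 3 deeper groups 2887, 3176 and 3077 CPM. In the library labelled WT the sum was 1463 CPM in the shallowest group (1563 to 3929 UMIs) and 1372, 1280 and 1016 CPM in the others. The sum was thus lowest in the shallowest group of the library labelled Fgd5-ko and highest in the shallowest group of the library labelled WT, and in both it was lower in the deepest group than in the one before. H2-Q7 was at 23.8, 59.9, 72.7 and 84.1 CPM over the depth groups of the library labelled Fgd5-ko, and between 1.56 and 2.27 CPM in the groups of the library labelled WT.

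Among cells of 4000 to 12000 UMIs, 1572 in the library labelled Fgd5-ko and 4455 in the library labelled WT, 7 of the 10 genes were at least 1.5-fold higher, as were 21.6% of all genes. H2-Q7 was at 24.7 and 1.61 CPM, a log2 ratio of 3.94, and H2-Q6 at 12.2 and 0.768 CPM, a log2 ratio of 3.99. B2m was at 473 and 211 CPM (1.17) and Tap1 at 21.8 and 11.3 CPM (0.95). H2-K1 (0.89), H2-D1 (0.80) and H2-Q4 (1.89) were past the limit too, Tap2 was not, and H2-T23 was at 154 and 140 CPM. Even so restricted, the cells of the library labelled Fgd5-ko were deeper, with a median of 9634.5 against 5570 UMIs.

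With every cell thinned to 2000 UMIs, a B2m UMI was found in 65.6% (64.4 to 66.8) of 6029 basal-like cells from the library labelled Fgd5-ko and in 33.0% (31.8 to 34.1) of 6300 cells of the library labelled WT; 61 cells of the library labelled WT were too shallow and left out, and unthinned shares were 96.8% and 63.6%. H2-K1 was found in 68.6% and 45.5% (unthinned 97.9% and 73.9%). H2-Q7 was found in 9.67% (8.94 to 10.4) and 0.413% (0.270 to 0.604), and unthinned in 39.9% and 0.833%. H2-T23 was found in 25.6% and 25.1%, and Tapbp in 10.6% and 10.6%. Any heavy chain was found in 93.8% and 81.0% of cells. Every cell class here carries class I RNA, so no class gives a background share for H2-K1, H2-D1 or B2m, and the part of free RNA in these shares was not tested.

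The higher level was spread over the cells. At 2000 UMIs per cell the median basal-like cell held 5 UMIs of the 10 genes in the library labelled Fgd5-ko and 2 in the library labelled WT, with 10th to 90th percentiles of 2 to 11 and 0 to 5. No UMI of any of the 10 genes was drawn in 2.90% and 11.8% of cells. The variance over the mean was 3.09 and 1.49, so cells of the library labelled Fgd5-ko also varied more among themselves.

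**Figure D2:**
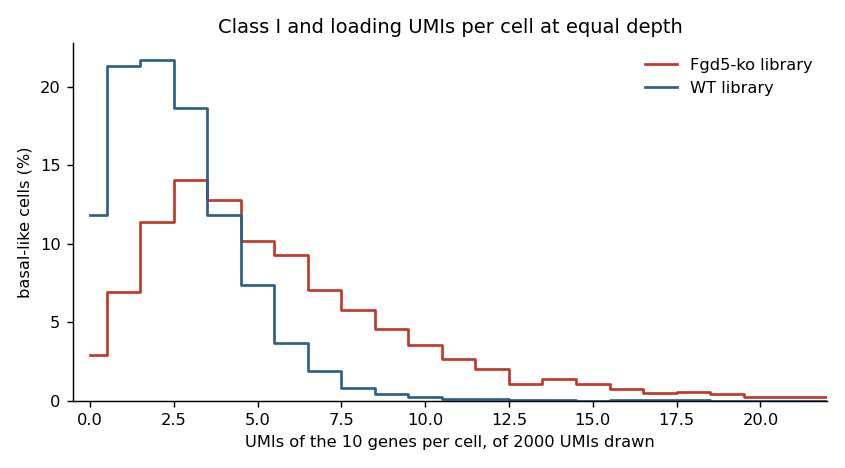
Share of basal-like cells (vertical axis, %) by the number of UMIs of the 10 genes among 2000 UMIs drawn per cell (horizontal axis), for the library labelled Fgd5-ko (red) and the library labelled WT (blue). The medians are 5 and 2 UMIs, and the red distribution is the broader one.

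Clusters of basal-like cells were almost all made of 1 library. The 10 genes and the pathway lists were left out of the genes used to cluster. Of the clusters with at least 50 cells of a library, 9 belonged to the library labelled Fgd5-ko and 8 to the library labelled WT. For 6 of the 10 genes (H2-K1, H2-D1, H2-Q4, H2-Q6, H2-Q7 and B2m) every cluster of the library labelled Fgd5-ko was above every cluster of the library labelled WT; over all 9410 genes this held for 4.58%. B2m spanned 361 to 1187 CPM in the clusters of the library labelled Fgd5-ko and 182 to 240 CPM in those of the library labelled WT. H2-Q7 spanned 17.6 to 162 CPM and 0 to 13.8 CPM. Tap1 (19.1 to 63.6 and 10.1 to 23.6 CPM), Tap2 (26.5 to 54.6 and 15.2 to 27.4 CPM), H2-T23 (90.6 to 188 and 97.0 to 177 CPM) and Tapbp (42.1 to 70.7 and 34.4 to 87.9 CPM) overlapped.

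**Figure D3:**
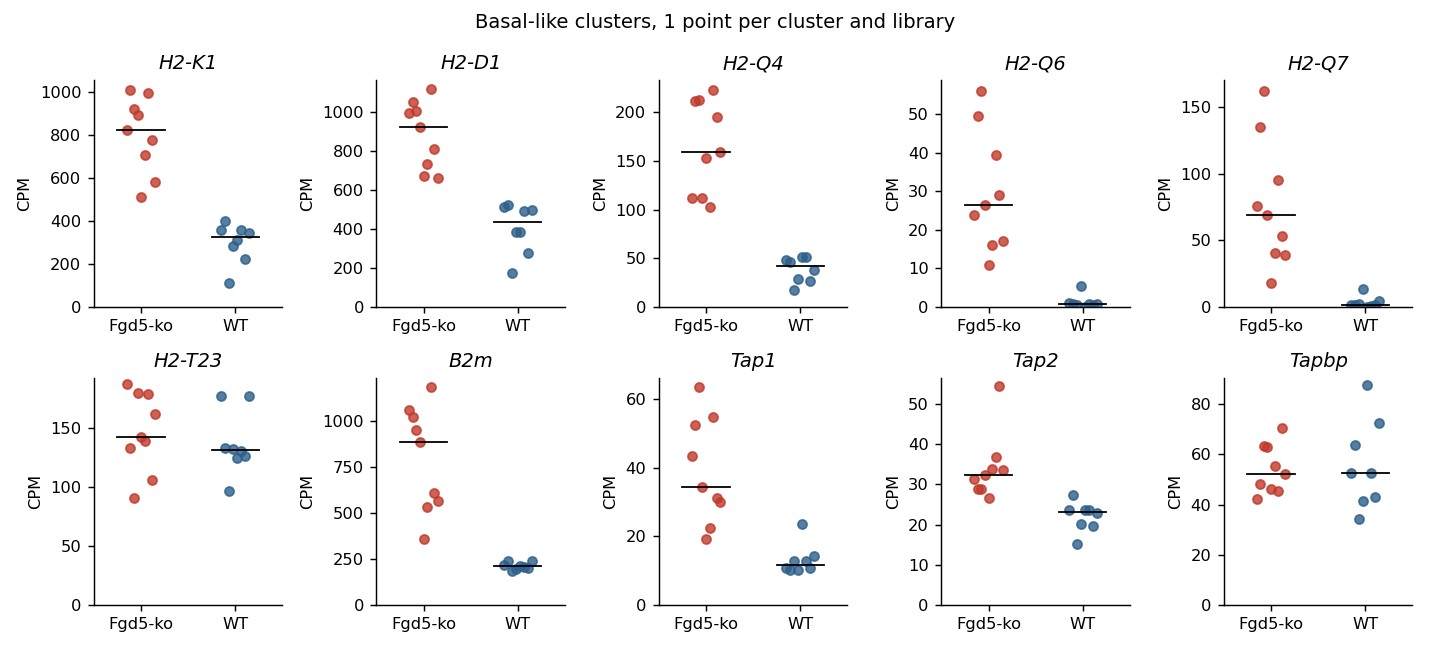
CPM of each gene in basal-like clusters with at least 50 cells, 9 points for the library labelled Fgd5-ko (red, left) and 8 for the library labelled WT (blue, right); the line is the median over clusters. The points of H2-K1, H2-D1, H2-Q4, H2-Q6, H2-Q7 and B2m do not overlap between libraries, and those of Tap1, Tap2, H2-T23 and Tapbp do.

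Within the library labelled Fgd5-ko the 10 genes summed to between 1962 CPM, in 1143 cells led by Gm8797, Ankrd1 and Slpi, and 3972 CPM, in 925 cells led by 1600014C10Rik and the interferon-inducible GTPase gene Iigp1, whose leading genes also include B2m and Irf1. H2-Q7 was highest, at 162 CPM (153 to 172), in 253 cells led by histone genes such as Hist1h1b and Hist1h3c, whose median of 28109 UMIs was the highest of the 9 clusters, and next, at 135 CPM (127 to 144), in 328 cells led by the mitotic genes Cenpf, Cenpa and Ube2c. In the library labelled WT the sum ran from 648 CPM, in 462 cells led by Csrp2, to 1445 CPM in 1204 cells. The highest cluster of the library labelled WT was below the lowest of the library labelled Fgd5-ko.

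A single named cluster of the authors' cells held enough of both libraries to compare them side by side. Its 43 cells of the library labelled Fgd5-ko and 131 of the library labelled WT were led by Ly6d, Aldh3a1 and Fgfbp1. There 8 of the 10 genes were at least 1.5-fold higher in the library labelled Fgd5-ko, with a median log2 ratio of 1.24, where 22.3% of all genes were past the limit. H2-Q7 was at 69.8 and 13.8 CPM, a log2 ratio of 2.34 (1.49 to 3.27), and 13.8 CPM was the highest H2-Q7 level among the 8 clusters of the library labelled WT. B2m was at 561 and 194 CPM, a log2 ratio of 1.53 (1.29 to 1.78). H2-T23 (118 and 132 CPM) and Tapbp (33.5 and 41.4 CPM) had intervals that include 0.

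Basal-like barcodes outside the authors' table, 410 and 214, are a separate set of barcodes of the same libraries. Their medians of 40721.5 and 17197.5 UMIs are above the deepest listed cell of each library (40227 and 15288 UMIs). The part of doublets among them was not tested. In these barcodes 9 of the 10 genes were at least 1.5-fold higher, as were 28.3% of all genes. The clusters of these barcodes were unlike in the libraries: one held 186 and 0 cells, another 10 and 127. H2-K1 was at 822 CPM in the library labelled Fgd5-ko and 206 CPM in the library labelled WT, and H2-D1 at 909 and 254 CPM, a log2 ratio of 1.84 (1.74 to 1.94). H2-Q7 was at 88.7 CPM against 0.872 CPM, the second from 3 UMIs, a log2 ratio of 6.67 (5.12 to 8.95). B2m was at 811 and 185 CPM, a log2 ratio of 2.13 (2.01 to 2.25). H2-T23 was the 1 gene under the limit, at 119 and 89.5 CPM (log2 ratio 0.41, 0.23 to 0.58). Tapbp was past it in these barcodes, at 52.5 and 29.9 CPM (0.81, 0.51 to 1.12). In the cycling cluster that both libraries shared (149 and 50 cells) 9 of 9 measured genes were past the limit (33.3% of all genes), with a median log2 ratio of 2.24. In a shallow shared cluster of 65 and 37 cells led by Slpi and Chil1, 2 of 5 measured genes were past it (28.3% of all genes), with a median of 0.26. The 2 were H2-D1 (185 and 21 UMIs, 0.63, -0.03 at the low end) and B2m (152 and 16 UMIs, 0.74, -0.01 at the low end), while H2-K1 had 145 and 37 UMIs, a log2 ratio of -0.54.

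Luminal progenitor-like cells of the authors' table were few in the library labelled Fgd5-ko (17, against 118), and 5 of their 9 genes with at least 20 UMIs were at least 1.5-fold higher there, where 17.5% of all genes were; 1 was at least 1.5-fold lower, as were 20.9% of all genes. H2-Q7 had 27 UMIs (92.2 CPM) in the library labelled Fgd5-ko against 1 UMI (1.52 CPM) in the library labelled WT, a log2 ratio of 5.92 (3.32 to 11.28). B2m was at 676 and 184 CPM, a log2 ratio of 1.88 (1.54 to 2.21), and H2-T23 at 266 and 283 CPM. Tap2 went the other way, with 13 and 51 UMIs, a log2 ratio of -0.81 whose interval (-1.81 to 0.09) includes 0. In the luminal progenitor-like barcodes outside the table (6 and 28) Tap2 was higher, with 21 and 11 UMIs, a log2 ratio of 1.27 (0.15 to 2.47).

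In endothelial-like cells 2 of the 10 genes were at least 1.5-fold higher within the library labelled Fgd5-ko (19.0% of all genes were) and 0 were lower (9.06%), and their median log2 ratio was 0.18 against 0.14 for all genes. The 2 were Tap1, at 82.3 and 42.2 CPM (log2 ratio 0.96, 0.68 to 1.25), and H2-Q4, at 476 and 312 CPM (0.61, 0.50 to 0.72), which falls under the limit with either other scaling. H2-Q7 was at 378 and 262 CPM (0.53, 0.41 to 0.65) and B2m at 2590 and 2255 CPM (0.20, 0.15 to 0.24). H2-T23 was at 457 and 411 CPM (0.15, 0.05 to 0.26) and Tapbp at 140 and 163 CPM (-0.22, -0.41 to -0.04), both further from 0 than in basal-like cells. H2-K1 was slightly lower in the library labelled Fgd5-ko, at 1987 and 2095 CPM (-0.08, -0.13 to -0.03), as was Tap2, at 94.4 and 112 CPM (-0.25, -0.47 to -0.02).

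In fibroblast-like cells 3 of the 10 genes were at least 1.5-fold higher, where 14.7% of all genes were, and 0 were lower (11.6%). They were H2-Q7 (72.8 and 32.3 CPM, log2 ratio 1.17, 0.95 to 1.40), Tap1 (34.1 and 17.7 CPM, 0.94, 0.63 to 1.26) and H2-Q4 (216 and 131 CPM, 0.71, 0.60 to 0.83). H2-K1 was at 734 and 818 CPM (-0.16, -0.21 to -0.10) and Tapbp at 114 and 150 CPM (-0.39, -0.52 to -0.26). B2m was at 1624 and 1353 CPM (0.26, 0.22 to 0.30). H2-T23 was at 222 and 174 CPM (0.35, 0.24 to 0.46), above its interval in basal-like cells. Tap1 was thus above the limit in all 3 classes, H2-Q4 too but for the other scalings in endothelial-like cells, and H2-K1, H2-D1 and B2m in basal-like cells alone of the 3. The difference between classes was not tested, since each class has 1 library per group, and these classes were made up of their clusters in unlike proportions in the 2 libraries.

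**Figure D4:**
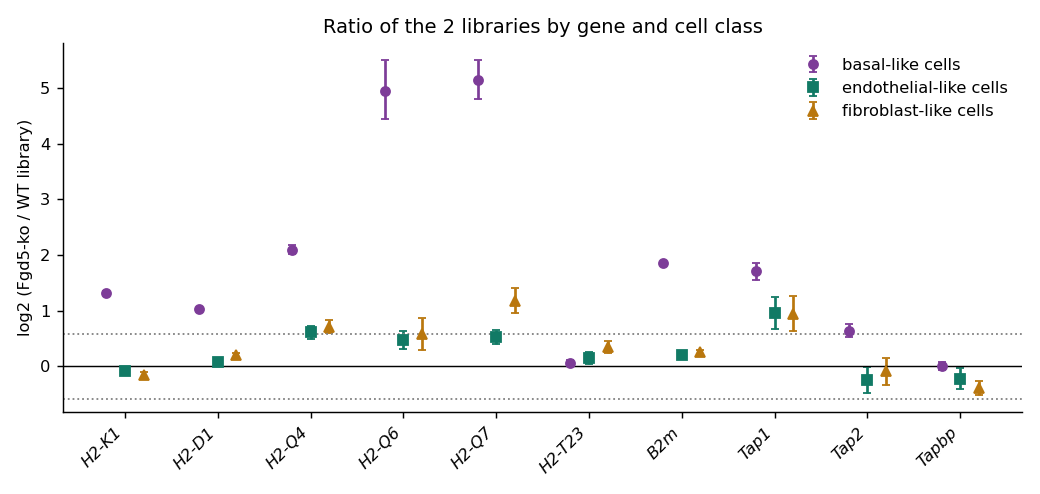
Log2 ratio for each gene, with the library labelled Fgd5-ko on top and that labelled WT below, in basal-like (circles), endothelial-like (squares) and fibroblast-like (triangles) cells, with exact 95% intervals; dotted lines mark 1.5-fold either way. H2-Q6 and H2-Q7 stand at 4.96 and 5.14 in basal-like cells and at 0.47 and 0.53 in endothelial-like cells.

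The ratio of Tap1 to Tap2 UMIs was higher in the library labelled Fgd5-ko in all 3 classes. It was 0.872 (0.717 to 1.06) in endothelial-like cells from the library labelled Fgd5-ko against 0.377 (0.321 to 0.442) in the library labelled WT, and 0.933 (0.785 to 1.11) against 0.457 (0.368 to 0.565) in fibroblast-like cells. B2m per heavy chain UMI differed less there than in basal-like cells, at 0.408 and 0.381 in endothelial-like and 0.652 and 0.606 in fibroblast-like cells.

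Endothelial-like cells carried the most class I RNA of the named classes in both libraries. Their 10 genes summed to 9250 CPM (9129 to 9372) within the library labelled Fgd5-ko and 8498 CPM (8418 to 8578) in the library labelled WT. In fibroblast-like cells they summed to 4300 and 3795 CPM, the next highest among classes with at least 20 cells in a library. Hormone-sensing luminal-like cells, with 5 cells listed and 5 outside the table in the library labelled Fgd5-ko, were at 4596 CPM (4199 to 5020) and 4463 CPM (4179 to 4761) there. All 10 genes were at least 1.5-fold higher in endothelial-like than in basal-like cells in each library, where 26.2% of all genes were in the library labelled Fgd5-ko and 28.4% in the library labelled WT. The median log2 ratio over basal-like cells was 1.57 in the library labelled Fgd5-ko and 2.71 in the library labelled WT. Fibroblast-like cells exceeded basal-like cells by 1.5-fold for 3 genes in the library labelled Fgd5-ko (24.4% of all genes) and for 9 in the library labelled WT (34.3% of all genes).

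The order of the lower classes was not the same in the libraries. In the library labelled Fgd5-ko, pericyte-like (2992 CPM), basal-like (2946 CPM) and Schwann-like cells (2708 CPM) had overlapping intervals. In the library labelled WT the interval of Schwann-like cells also overlapped that of fibroblast-like cells; Schwann-like (3658 CPM) and hormone-sensing luminal-like cells (3401 CPM) had overlapping intervals, pericyte-like cells (2267 CPM) were below them, and luminal progenitor-like (1595 CPM) and basal-like cells (1217 CPM) of the authors' table lower still. H2-Q7 in the library labelled WT was at 262 CPM in endothelial-like cells. It was at 42.8 CPM in hormone-sensing luminal-like cells of the table and 32.3 CPM in fibroblast-like cells, with overlapping intervals. In hormone-sensing luminal-like barcodes outside the table it was at 61.6 CPM (48.4 to 77.2), above the interval of fibroblast-like cells. It was at 1.93 CPM in basal-like and 1.52 CPM in luminal progenitor-like cells of the table. H2-Q7 was thus higher in other cells of the same library, and the cause was not tested.

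**Figure D5:**
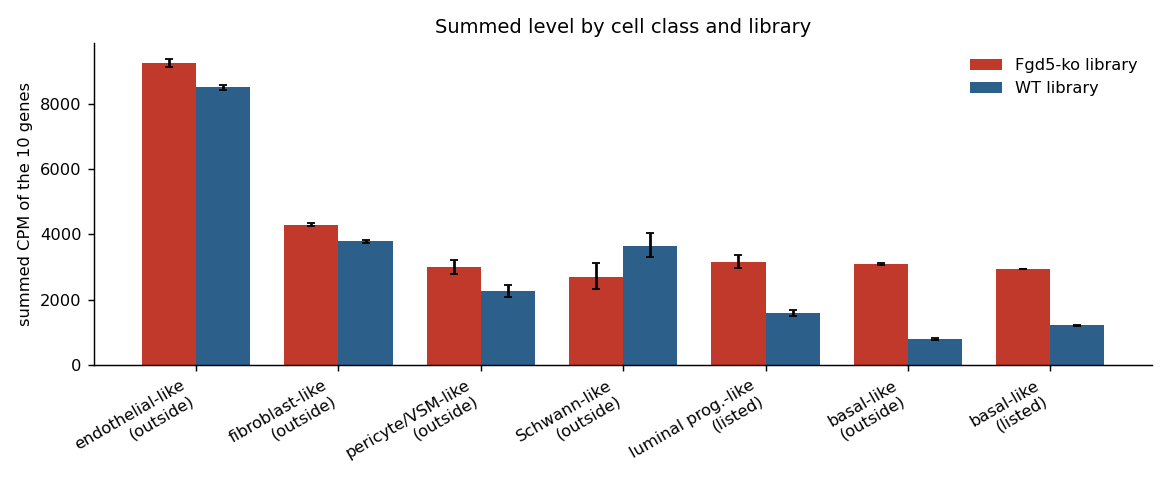
Summed CPM of the 10 genes (vertical axis) in 7 sets of cells, from the authors' table (listed) or outside it, for the library labelled Fgd5-ko (red, left) and the library labelled WT (blue, right); bars are 95% Poisson intervals. Endothelial-like cells stand at 9250 and 8498 CPM, and basal-like cells of the table at 2946 and 1217 CPM.

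Among single clusters, the highest sum of the 10 genes was in an unnamed cluster of 54 and 125 barcodes led by Ccl20, Marco and Lyve1, with the lymphatic transcription factor gene Prox1 among its leading genes. It reached 13732 CPM in the library labelled Fgd5-ko and 15563 CPM in the library labelled WT. Next came the endothelial-like cluster led by Glycam1 and Ccl21a, at 11117 CPM in 20 barcodes and 10084 CPM in 163. A fibroblast-like cluster led by Ccl19 and Cxcl13, chemokines of lymphoid stroma, was at 7458 and 5997 CPM, above the rest of its class. Among the unnamed clusters, one of 51 and 125 barcodes led by Nrip2, Tesc and Ndufa4l2 was at 1212 and 1580 CPM, and one of 46 and 50 barcodes led by Gm13889 and Rrad at 2897 and 1461 CPM.

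Other genes of the pathway were read from lists, whose counts in basal-like cells stand against the 22.9% of all genes that were at least 1.5-fold higher and the median log2 ratio of 0.23 over all genes. The median was 0.77 for class I-like genes other than the members, 0.04 for loading and trimming, 0.54 for the immunoproteasome, 0.06 for the standard proteasome and 0.65 for regulators. It was 0.35 for interferon receptors and signalling, 1.02 for the interferon response and 1.74 for class II. The other scalings lower each of these by the shift given above, which takes Nfkb1 and Tapbpl under the limit. Among 9 measured class I-like genes other than the members, 6 were at least 1.5-fold higher in basal-like cells from the library labelled Fgd5-ko and 1 lower; H2-T22 was at 50.6 and 22.2 CPM (log2 ratio 1.19, 1.08 to 1.30), and Fcgrt, the neonatal Fc receptor gene, at 36.5 and 45.7 CPM (-0.33). The 1 lower was Cd1d1, which presents lipids, at 6.05 and 10.5 CPM (-0.80, -0.98 to -0.61), named after its values were seen. Of 9 genes for other steps of loading and trimming 1 was higher, Tapbpl, at 21.4 and 12.8 CPM (0.74), also named after its values were seen. The chaperone genes Calr (349 and 241 CPM, 0.53) and Bcap31 (151 and 203 CPM, -0.43) and the trimming peptidase gene Erap1 (23.6 and 16.6 CPM, 0.51) were within the limit.

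Of 5 immunoproteasome and activator genes 2 were higher: Psmb9, at 42.3 and 9.69 CPM (2.13, 1.97 to 2.29), and Psmb8, at 111 and 41.4 CPM (1.42), both catalytic subunits encoded beside Tap1 and Tap2. Psmb10 was at 39.6 and 27.2 CPM (0.54), within the limit. Of 8 standard proteasome genes 0 were past the limit, and the 2 with the largest ratios, Psmb4 (0.55) and Psmb7 (0.49), were under it. In endothelial-like and fibroblast-like cells 0 of the 5 immunoproteasome genes were past the limit. Of all genes 19.0% and 14.7% were at least 1.5-fold higher there.

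Of 11 transcriptional regulators 6 were higher and 0 lower. Irf1, which interferon gamma induces, was at 500 CPM in the library labelled Fgd5-ko and 189 CPM in the library labelled WT (1.40, 1.37 to 1.44), and the NF-kappaB subunit genes Rela (51.7 and 28.1 CPM, 0.88) and Nfkb1 (73.8 and 46.9 CPM, 0.65) were past the limit. Also past it were Nlrc5 (11.2 and 2.88 CPM, 1.96) and Rfx5 (9.19 and 4.54 CPM, 1.02), named after their values were seen. The counts of higher genes were 4 of 11 in endothelial-like and 3 of 11 in fibroblast-like cells. Of all genes 19.0% and 14.7% were higher there.

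On the interferon response list more genes were past the limit in basal-like than in other cells, a difference that was not tested. In basal-like cells 13 of the 20 measured response genes were higher and 1 was lower. In endothelial-like cells 4 were higher and 3 lower, where 19.0% and 9.06% of all genes were. In fibroblast-like cells 5 were higher and 2 lower, where 14.7% and 11.6% of all genes were. Of the response genes averaging 20 CPM in basal-like cells, Iigp1 and Irf9 alone were past the limit. Iigp1 was at 46.1 and 2.77 CPM (4.06, 3.77 to 4.36) and Irf9, a subunit of an interferon-activated transcription factor, at 48.8 and 24.1 CPM (1.02), while Ifi27 (212 and 150 CPM, 0.50) and Isg15 (23.6 and 17.6 CPM, 0.42) were within the limit. Summed over the list, level and count did not go together in basal-like clusters. The response genes summed to a median of 2579 CPM over the 9 clusters of the library labelled Fgd5-ko, with a range of 1741 to 3130. The median was 2763 CPM over the 8 clusters of the library labelled WT, with a range of 1539 to 3841. Abundant genes weigh most in such a sum. Iigp1 and Irf9 were a small part of it, so it does not describe each response gene. The 1 lower gene was Bst2, at 9.88 and 16.3 CPM (-0.72), named after its values were seen. Of 9 measured interferon receptor and signalling genes 2 were higher, the kinase gene Jak1 (124 and 58.0 CPM, 1.09) and the feedback inhibitor gene Socs3 (2413 and 1180 CPM, 1.03). Ifng, Ifnb1 and Ifnl3 had 0 UMIs in basal-like cells of both libraries.

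The genes of the MHC class II list, which serve the presenting of peptides from outside the cell, were higher in 7 of 7. Cd74, the invariant chain, was at 71.1 and 14.7 CPM (2.27, 2.14 to 2.40), and was the only one of them averaging 20 CPM. Genes of the class II list were higher in endothelial-like cells too, in 6 of 6 measured, where 19.0% of all genes were. In fibroblast-like cells 5 of 6 were higher, where 14.7% of all genes were. Markers of immune cells in basal-like cells stood beside these differences: the 8 T and NK cell markers summed to 25.3 and 21.2 CPM with 1 and 4 at 0, the 6 B cell markers to 0.358 and 0.700 CPM with 3 and 2 at 0, and the 12 myeloid markers to 4.25 and 15.6 CPM with 1 at 0 in each. Ptprc, the common leukocyte antigen, had 0 and 2 UMIs. The class II genes were not recomputed without such cells, and the part of immune cell RNA in them was not tested. Leaving out cells with any UMI of these immune markers kept 3986 of 6029 and 5268 of 6361 basal-like cells. In the cells kept, H2-Q7 had a log2 ratio of 4.87, B2m 1.80 and H2-K1 1.27, and Tap2, at 0.58, fell under the limit. A deeper cell is more likely to hold such a UMI, so this filter may also select by depth, which was not tested.

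Likeness of pattern was measured as Pearson's r between log2 CPM of a gene, with 10 CPM added, and that of the heavy chains and B2m summed. Over 14 sums (7 classes in 2 libraries) the most alike genes were Psmb8 (0.92), Wasf2 (0.91), Sra1 (0.90), Psmb9 (0.90), Rac1 (0.87), Tgoln1 (0.87), Ubl3 (0.87), H2-T22 (0.86), Zcchc6 (0.85) and Ece1 (0.85). These points share library depth and are a description. H2-D1 (0.98), B2m (0.95) and H2-Q4 (0.94), which are part of the sum or copies of its genes, were alike to it, while Tap1 (0.63), H2-T23 (0.58), Tap2 (0.58) and Tapbp (0.58) were less so. Over 7 basal sub-clusters of the library labelled Fgd5-ko, Tap1 had r = 0.96 and H2-T23 0.00, and Kctd14 (0.99), Hadha (0.98) and Reep5 (0.97) led the other genes; the library labelled WT gave only 4 sub-clusters, too few to rank.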

How the data were processed

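Single-cell 3′ tag libraries (V3 chemistry, per the labels' protocols) were made of mammary gland cells, 1 library per group. The authors deposited UMI counts per gene and barcode without normalization; per the file headers Cell Ranger 3.1.0 wrote them, and mm9 and Seurat 3.0 are named in the submitters' processing notes. The authors' deposited t-SNE coordinates were not used; the same table's barcodes define the listed cells. Depth was 136697801 UMIs in the library labelled Fgd5-ko and 60566053 in the library labelled WT.

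Each listed barcode carries a suffix. All 6064 of suffix 2 were found among the barcodes labelled Fgd5-ko (27 among those labelled WT), and all 6588 of suffix 1 among those labelled WT (21 among those labelled Fgd5-ko). Other barcodes needed 1000 UMIs, 500 genes and at most 15% mitochondrial UMIs. Listed and other barcodes were clustered apart (2000 variable genes, 30 components, 15 neighbours, Leiden resolution 1, no batch correction) without the 10 genes and the pathway lists. A class name needed a log2 margin of 1 over the next marker list and 3 markers in 10% of cells; this scoring was set after seeing the data. No doublet caller was run, so doublets remain. Clusters that mix markers stayed unnamed only where they failed the naming rule. The fibroblast-like cluster led by Smoc2, Slpi and Col1a2 kept its name at a log2 margin of 1.41 over basal markers.

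UMIs were summed per class and library and divided by the class total. A gene counted as measured at 20 UMIs over both libraries, and the background needed a mean of 5 CPM as well. Named genes are the 10 members, 2 to 4 genes of each list, by size of ratio, among those averaging 20 CPM, and 10 genes by likeness; others are marked as chosen later. The members and lists were chosen with earlier results of these data known. The ratios and intervals were tried on simulated Poisson counts, the model that the intervals assume. That trial cannot check spread between cells or animals. Clustering ran in scanpy 1.11.5 with leidenalg 0.10.2, on igraph 0.11.9 and scikit-learn 1.9.0. Intervals came from SciPy 1.17.1 and figures from matplotlib 3.10.9, under Python 3.11.15 with pandas 2.3.3 and NumPy 2.4.6; edgeR 4.0.16 gave TMM factors only.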

Additional observations from a re-analysis of the deposited data

Results flagged for a closer look

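H2-K1 had opposite directions in different cell classes: its log2 ratio, with the library labelled Fgd5-ko on top, was -0.076 in endothelial-like and -0.16 in fibroblast-like cells, against 1.32 in basal-like cells. Tap2 was at -0.25 in endothelial-like and 0.64 in basal-like cells. In each case both counting intervals exclude 0. The differences between classes were not tested, as there is 1 library per group. The endothelial-like and fibroblast-like classes held their clusters in unlike proportions in the 2 libraries. H2-K1 was at 880 and 662 CPM (Fgd5-ko and WT labels) in the fibroblast-like cluster led by Smoc2, Slpi and Col1a2. Basal markers came next in that cluster (log2 margin 1.41), and the part of basal RNA in it was not tested. In the cluster led by Smoc2, Angptl1 and Apod H2-K1 was at 527 CPM (Fgd5-ko label). That was below all 5 WT-label clusters of the class with at least 50 barcodes, its own WT part included.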

How the results depend on the processing

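No paired analysis was possible because each group has 1 library. In basal-like cells the count of genes at least 1.5-fold higher was 7 or 8 under all 15 alternatives; H2-K1, H2-D1, H2-Q4, H2-Q6, H2-Q7, B2m and Tap1 passed the limit under every alternative that gave them a value, Tap2 under 9 of 15, and H2-T23 and Tapbp under none. H2-Q6 fell out of the fit that asked for a mean of 20 CPM. Ratios were smallest for 7 of those genes in cells of 4000 to 12000 UMIs (H2-Q7 3.94, H2-Q6 3.99, H2-Q4 1.89, B2m 1.17, Tap1 0.95, H2-K1 0.89, H2-D1 0.80); the cause was not tested. In endothelial-like cells the count of 2 became 1 with TMM factors, 1 with median ratios and 4 with equal weight to clusters holding at least 20 barcodes of each library. In fibroblast-like cells it stayed between 2 and 4 under 6 alternatives. Leaving out barcodes that occur in both libraries, and adding the outside basal-like barcodes, were chosen after seeing the data and changed no count. Shares from thinned cells moved beyond their interval in 53 of 240 values, of which 38 came from drawing another number of UMIs. Precision is lowest for H2-Q6 and H2-Q7, with 32 and 69 UMIs in basal-like cells from the library labelled WT. Since each group is a single library, animal, batch, depth and genotype cannot be told apart.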

Other observations

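H2-M9, a class I-like gene of the M region that is in no list above, was at its highest in pericyte-like cells; it was chosen after its place among the leading genes of a cluster was seen, so its level there is a description. In pericyte-like cells it had 121 UMIs (501 CPM, 416 to 599) in 33 barcodes of the library labelled Fgd5-ko and 203 UMIs (862 CPM, 747 to 989) in 71 barcodes of the library labelled WT. An unnamed cluster led by H2-M9, Ednrb and Cyp26b1, with the pericyte genes Kcnj8, Abcc9 and Rgs5 among its leading genes, was at 247 CPM (216 to 282) in 61 barcodes and 336 CPM (304 to 370) in 194 barcodes. In basal-like cells of the authors' table it was at 0.561 and 0.224 CPM, in endothelial-like cells at 0.832 and 1.17 CPM and in fibroblast-like cells at 0.259 and 0.277 CPM. The unnamed cluster led by Nrip2, Tesc and Ndufa4l2 was at 17.3 and 14.0 CPM. An unnamed cluster led by Gm13889 and Rrad was at 4.18 CPM (4 UMIs) and 92.0 CPM (42 UMIs), and an unnamed cluster led by Igkc and Iglc2 at 58.4 CPM (15.9 to 150) in 26 barcodes of the library labelled WT, from 4 UMIs.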
